A study of Sicyos edulis with 9 samples.

Results

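The 200 unigenes described here had the most even levels in chayote fruits during storage. Chayote (Sicyos edulis) is a cucurbit whose fruit encloses a single large seed. Wild-type fruits were sampled for RNA-seq when optimal for harvest (S1) and again once stored for 15 days (S2) or 30 days (S3), with 3 libraries per stage. The libraries of a stage were made as independent biological replicates of field-grown fruits of the same size, kept in plastic containers, and no treatment other than storage separates the stages. The storage temperature differs between the sources, and the tissue is given only as fruit, so peel, flesh and seed could not be told apart. A unigene is a gene-level cluster of assembled transcripts, and its level was read as FPKM, a fragment count divided by transcript length and by the mapped fragments of the library. Of 57814 unigenes, 12485 had a mean of at least 10 and under 800 FPKM over the 9 libraries. Of these, 118 were left out, which the study lists as genes of flavonoid synthesis or as transcription factors of families tied to it. Among the 12367 that remained, the 200 with the smallest standard deviation (SD) of log2(FPKM + 1) over all 9 libraries were taken. This SD chose the members, so their small spread and the small differences between their stages are a description and no finding.

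Measurements by quantitative PCR are read against reference transcripts, which are assumed to keep the same level in every sample. A useful reference has little spread between samples and a level near that of the gene it is set against. An even FPKM is an even number of fragments per transcript length and per mapped fragments of the library. It is an even share of the total FPKM only where libraries have the same total, and here the totals differed between stages. In bulk tissue, fewer cells with the transcript and less of it per cell cannot be told apart. Reference genes in fruit are commonly taken from actin, tubulin, ubiquitin or elongation factor families. The sources used here pair none of the 200 members with a gene name, a function or a sequence, so the members stand under their Trinity identifiers, written without the shared prefix TRINITY_. The study names its qRT-PCR reference as AUG in the methods and as an actin gene elsewhere. Neither is paired with a Trinity identifier, so the level of the reference was not set beside the members.

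The 9 libraries held a total of 801066 to 914583 FPKM and 40109 to 44825 unigenes above 0. The relative depth, estimated from the steps between low values, ran from 0.730 to 1.29 times that of S1 replicate 2. The mapped reads per library that the study reports span a narrower range relative to that library. Libraries of the same stage correlated with Pearson's r of 0.905 to 0.958 across unigenes, S2 and S1 libraries with 0.898 to 0.925, S3 and S2 libraries with 0.810 to 0.830, and S3 and S1 libraries with 0.794 to 0.838. The files give no counts, so the counting error of a value is unknown. The 200 members made up 0.934% to 1.09% of the total FPKM of a library.

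The members covered most of the range of levels, with mean FPKM of 10.1 to 380 and a median of 28.7, against a median of 27.2 for all unigenes of the range. Of the members, 58 averaged 10 to 20 FPKM, 90 averaged 20 to 50, 38 averaged 50 to 100, 11 averaged 100 to 200 and 3 averaged at least 200. Members were 1.31%, 1.88%, 2.03%, 1.33% and 0.622% of the unigenes in these 5 ranges of level. Members were thus found in each range of level, and the share in the highest rests on 3 of 482 unigenes. The differences between these shares were not tested. The SD over 9 libraries was 0.0446 to 0.1077 in the members, with a median of 0.0914, against a median of 0.432 in all unigenes of the range. The median coefficient of variation of FPKM was 6.58% in the members and 30.9% in all unigenes of the range. The highest library exceeded the lowest by 1.22 times in the median member and by 1.33 times at most, against 2.39 times in the median unigene of the range.

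**Figure D1:**
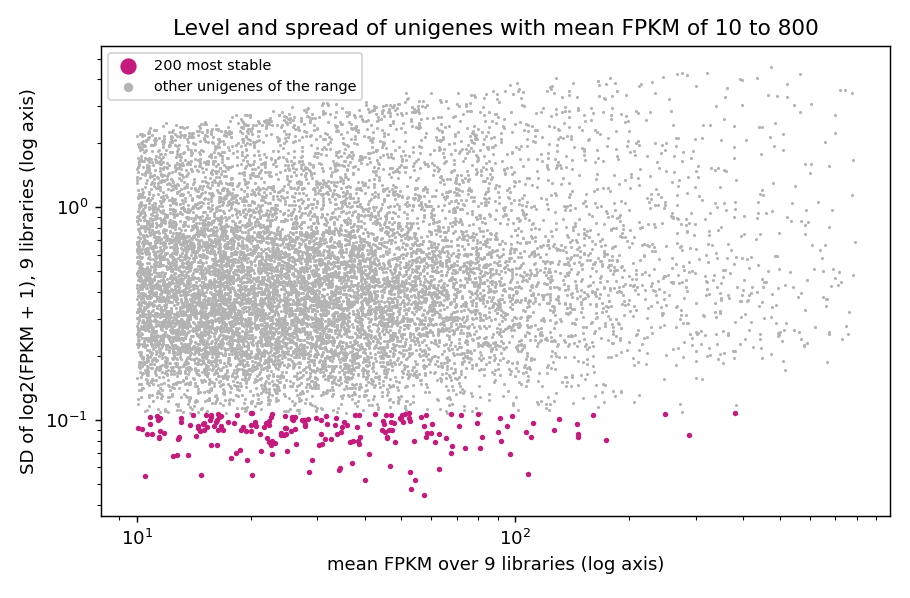
Mean FPKM over 9 libraries (horizontal, log axis) and SD of log2(FPKM + 1) over the same libraries (vertical, log axis), with 1 point per unigene. The 200 members lie along the lower edge at 0.1077 or less from 10.1 to 380 FPKM, and the other unigenes of the range have a median of 0.439.

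The limit of the list did not fall in a gap. The last 3 members, DN9777_c0_g2, DN796_c0_g3 and DN5997_c1_g1, had SDs of 0.107631, 0.107717 and 0.107721. The next 3 unigenes, DN2235_c0_g1, DN969_c0_g1 and DN1595_c0_g1, had 0.107759, 0.10795 and 0.108227. Membership near rank 200 therefore separates unigenes of practically the same spread. Among the flavonoid and transcription factor unigenes left out, the smallest SD was 0.118 (DN6566_c0_g1, listed with the transcription factors), so none would have entered the list. Of the 74 unigenes at 800 FPKM or more, the steadiest was DN3517_c0_g2 with an SD of 0.137 at a mean of 1700 FPKM, also beyond the limit.

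The steadiest unigene of the range was DN1793_c1_g4. It had 55.0, 56.6 and 57.4 FPKM at S1, 57.0, 56.1 and 61.3 at S2, and 57.2, 58.8 and 56.1 at S3. The stages overlapped, the highest value was that of S2 replicate 3, and the SD over 9 libraries was 0.0446 on the log2 scale. DN10486_c0_g2 had 54.1, 54.0 and 54.8 FPKM at S1, 55.1, 52.9 and 50.1 at S2, and 51.6, 51.1 and 54.0 at S3. Its lowest library was S2 replicate 3, where DN1793_c1_g4 was highest, and its SD was 0.0478.

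DN18155_c0_g1 had the third smallest SD, 0.0523, but its S2 libraries stood apart from those of S1 and S3, which overlapped. It had 52.9, 54.8 and 53.6 FPKM at S1, 55.0, 57.8 and 57.1 at S2, and 53.0, 51.8 and 53.1 at S3. All 3 libraries of S2 lay above all 6 of the other stages, and 78.5% of the variance over 9 libraries lay between stages. Its pooled SD between replicates, 0.0280 on the log2 scale, was the smallest of all members. The difference between S3 and S2 was -0.10 and that between S2 and S1 was 0.07 on the log2 scale. A unigene can thus rank among the steadiest while its small drift exceeds its replicate spread.

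DN3423_c1_g1 had 41.1, 39.6 and 37.2 FPKM at S1, 39.0, 40.5 and 40.7 at S2, and 41.9, 41.2 and 38.9 at S3. Its stages overlapped and 16.6% of its variance lay between stages. DN5168_c0_g2, near the lower limit of the range, had 10.7, 10.8 and 10.7 FPKM at S1, 9.91, 10.29 and 11.35 at S2, and 10.1, 10.7 and 10.2 at S3. The libraries of S2 spread on both sides of those of S1 and S3, and the mean was 10.5 FPKM.

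At higher levels the steadiest members spread as much or more. DN194_c0_g1 (mean 108 FPKM) had 115.1, 110.5 and 102.9 FPKM at S1, 105.3, 108.9 and 108.6 at S2, and 112.1, 102.2 and 108.1 at S3. Only 4.99% of its variance lay between stages, and its SD of 0.0556 was close to those of the members at lower levels. DN188_c0_g1 (mean 173 FPKM) had 176.8, 154.7 and 172.4 FPKM at S1, 173.2, 171.6 and 178.3 at S2, and 167.6, 173.9 and 191.4 at S3. Its SD was 0.0807, with S1 replicate 2 the lowest library and S3 replicate 3 the highest.

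Of the 482 unigenes of the range at 200 FPKM or more, 3 were members. DN985_c4_g2 had 298.5, 280.0 and 298.8 FPKM at S1, 285.2, 281.8 and 286.7 at S2, and 319.5, 277.1 and 258.1 at S3. The 3 libraries of S3 held both its highest and its lowest value. DN1777_c1_g2 had 263.4, 228.6 and 235.4 FPKM at S1, 249.1, 237.4 and 235.3 at S2, and 240.9, 269.0 and 285.0 at S3, which overlapped. DN5997_c1_g1, the most abundant and last member, ranged from 340.0 FPKM in S1 replicate 1 to 419.2 FPKM in S3 replicate 3. Among the members at low levels, DN24446_c0_g1 averaged 14.8 FPKM with an SD of 0.0555, and DN5189_c0_g1 averaged 20.2 FPKM with 0.0553.

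**Figure D2:**
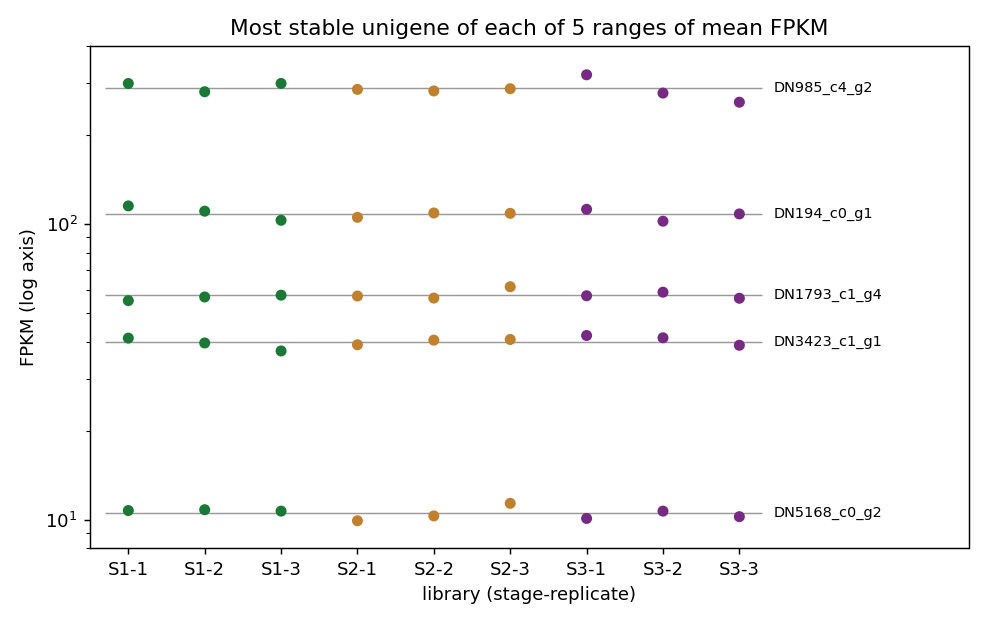
FPKM (vertical, log axis) of the steadiest member of each of 5 ranges of level in the 9 libraries (horizontal, stage and replicate), coloured by stage, with a grey line at each unigene's mean. From top to bottom the means are 287, 108, 57.3, 40.0 and 10.5 FPKM, and the widest spread is that of the uppermost at S3, from 258.1 to 319.5 FPKM.

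The drift between stages that remained in the members was set beside the spread between replicates. The highest and the lowest of the 3 stage means of log2(FPKM + 1) differed by 0.0064 to 0.216 in the members, with a median of 0.118, against a median of 0.820 in all unigenes of the range. The pooled SD between replicates had a median of 0.0786 in the members and 0.211 in the range. Both were thus smaller in the members, and the drift between stages was reduced more than the replicate spread. In 132 members (66%) the range of the stage means exceeded the pooled SD of the same unigene, and in 62 members (31%) it exceeded 2 such SDs. The shares in all unigenes of the range were 94.6% and 82.0%. A median of 34.9% of the variance over 9 libraries lay between stages in the members, against 82.1% in the range. The choice acted on this sum of both kinds of variance, so these values describe what it left. The SD between replicates of the median member was 0.0826 at S1, 0.0576 at S2 and 0.0718 at S3, and S2 was also the stage with the smallest spread in the range as a whole (0.234 at S1, 0.0964 at S2 and 0.186 at S3).

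**Figure D3:**
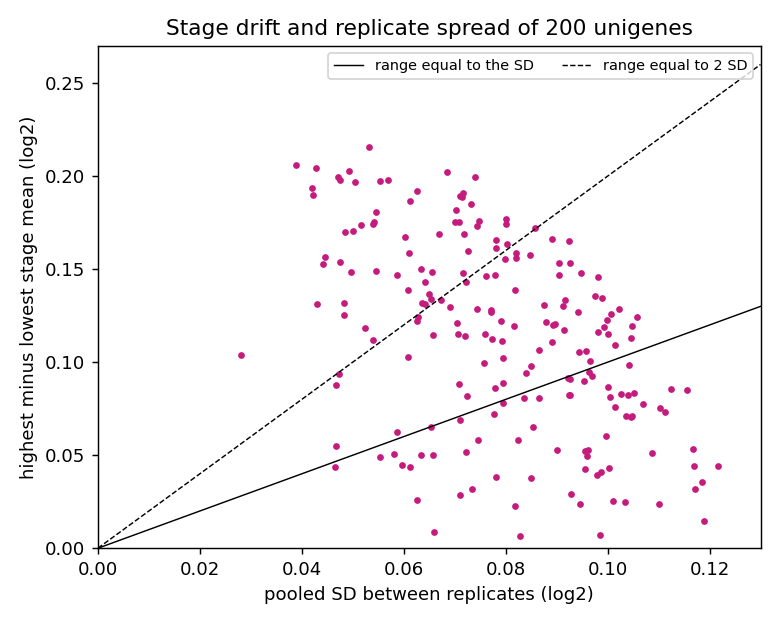
Highest minus lowest stage mean (vertical) against the pooled SD between replicates (horizontal) of the 200 members, both of log2(FPKM + 1), with 1 point per member. Points above the solid line (132 members) drifted between stages by more than 1 replicate SD, and points above the dashed line (62 members) by more than 2.

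With FPKM as deposited, members with positive and negative differences were similar in number. The difference between S2 and S1 had a median of -0.02 on the log2 scale and was positive in 88 of the 200, that between S3 and S2 a median of 0.02 with 114 positive, and that between S3 and S1 a median of 0.01 with 114 positive. The highest stage mean fell at S1 in 68 members, at S2 in 46 and at S3 in 86. The signs of the first 2 medians depended on the scale between libraries: after median-of-ratios scaling they were 0.02 for S2 minus S1 and -0.01 for S3 minus S2, and after quantile normalization 0.07 and -0.06. With each library brought to the same total they were -0.06 and 0.18, and 169 of the 200 members were then higher at S3 than at S1. The median of S3 minus S1 was positive under each scale tried.

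A limma fit over 30201 unigenes that reached an FPKM of 1 in 3 or more libraries called 17.9% of all unigenes between S2 and S1, 46.5% between S3 and S2, 47.5% between S3 and S1, and 55.9% over the 3 stages jointly (Benjamini-Hochberg adjusted p under 0.05). It called 0 of the 200 members in each of these tests. At an unadjusted p under 0.05, limma gave 1 member between S2 and S1, 4 between S3 and S2, 6 between S3 and S1, and 0 over the 3 stages. A unigene called at the adjusted threshold also passes the unadjusted one, so at least the above shares of all unigenes pass it. Nothing is read from these low counts, since members were taken for small differences in the same libraries. The stages did not overlap at all in 37 members (18.5%) between S2 and S1, against 38.3% of all unigenes tested. Between S3 and S2 they did not overlap in 50 members (25%), against 59.5%, and between S3 and S1 in 40 members (20%), against 52.9%. The choice used these same values, so the counts are a description.

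The members with the largest differences between S3 and S1 show how large this drift was. DN3248_c0_g2 had 37.0, 39.5 and 37.99 FPKM at S1, 41.9, 42.5 and 39.5 at S2, and 43.8, 43.7 and 44.9 at S3. Every S3 library lay above every S1 library, with S2 between them in the mean, and S3 minus S1 was 0.20 (SE 0.08; limma adjusted p = 0.0664). DN2378_c0_g1 had 84.7, 85.4 and 88.3 FPKM at S1, 92.9, 89.97 and 83.6 at S2, and 100.2, 97.9 and 99.7 at S3. Its S3 libraries lay above all 6 others, and S3 minus S1 was 0.20 (SE 0.08; limma adjusted p = 0.0754).

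On the other side, DN32513_c0_g1 had 23.4, 21.2 and 21.4 FPKM at S1, 18.7, 19.3 and 19.0 at S2, and 18.8, 19.3 and 18.9 at S3. The step lay between harvest and day 15, all S1 libraries were above the 6 others, and S3 minus S1 was -0.20 (SE 0.09; limma adjusted p = 0.0906). DN440_c0_g1 had 39.5, 36.7 and 37.3 FPKM at S1, 34.0, 34.7 and 37.3 at S2, and 31.9, 33.2 and 33.6 at S3. Its S3 libraries lay below all others, and S3 minus S1 was -0.20 (SE 0.08; limma adjusted p = 0.0865). None of these 4 passed the threshold. Between 76.0% and 85.6% of their variance lay between stages, a share that follows in part from taking the largest differences.

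The intervals bound the drift that the libraries allow. The 95% limma intervals of all 3 differences lay within 0.42 of 0 on the log2 scale (1.34 times) in every member, and the median member's widest bound was 0.34. The median standard error of a difference was 0.097. limma drew the spread of the members towards that of other unigenes, so that its SD was 0.118 in the median member, against 0.0786 from the replicates alone. The members were chosen on the same libraries, so these intervals do not cover the error of that choice.

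No library stood apart from the others in the median of the members. The median deviation of the members from their own means lay between -0.022 in S2 replicate 1 and 0.025 in S3 replicate 3. The deviations from the 10th to the 90th percentile ran from -0.145 to 0.137 in S1 replicate 1, the widest, and from -0.0878 to 0.0762 in S2 replicate 2, the narrowest. S1 replicate 1 was the library farthest from the mean in 40 members, S1 replicate 3 and S3 replicate 1 in 32 each, and the 3 libraries of S2 in 11 to 13 each. In the range as a whole, S3 replicate 1 was most often the farthest, in 26.4% of unigenes, and S1 replicate 1 in 14.7%.

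**Figure D4:**
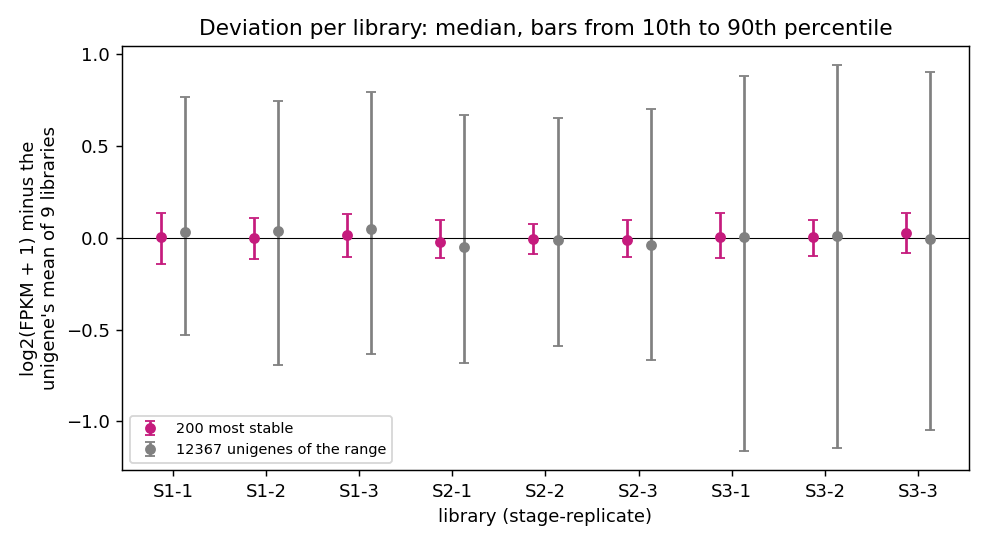
Deviation of log2(FPKM + 1) from the unigene's mean of 9 libraries (vertical) in each library (horizontal), for the 200 members and for the 12367 unigenes of the range. Points are medians and bars run from the 10th to the 90th percentile: bars of the members stay within 0.145 of 0, and those of the range widen to -1.16 in S3 replicate 1.

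Which transcripts look constant depends on the scale between libraries. The total FPKM was 868507 to 886010 at S1, 902834 to 914583 at S2 and 801066 to 832808 at S3, and so did not overlap between stages. When every library was brought to the same total, the median difference of all unigenes tested between S3 and S2 moved to 0.12, against 0.0038 with FPKM as deposited. The median of the members moved to 0.18, and their median range of stage means to 0.192, against 0.118 with FPKM as deposited. limma then called 34 members between S3 and S2, 11 between S3 and S1 and 17 over the 3 stages, with S3 the higher stage in each pairwise call. The shares of all unigenes tested that it called there were 46.1%, 46.3% and 54.6%. On that scale 97 of the 200 members would have been taken again. On median-of-ratios scaling, 161 would have been taken again. limma then called 0 members in each test, against 17.7% to 56.0% of all unigenes tested. On quantile normalization, 141 would have been taken again. Between S3 and S2, 1 member was then called, against 46.2% of all unigenes tested. 62 members were in the list on all 4 scales. The data hold no added RNA of known amount, so which of these scales follows the amount of a transcript per fruit was not tested.

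A library that took no part in the choice gives a measure that the rule did not use. Each library was left out in turn, the 200 unigenes with the smallest SD were taken on the other 8, and the left-out library was compared with the mean of those 8. Over the 1800 values the median absolute distance was 0.093 on the log2 scale and the 90th percentile 0.257, and 1480 values (82.2%) lay within 0.2. The median distance was 0.053 to 0.166 by library, against 0.290 to 0.509 for all unigenes of the range. The lists were thus closer than the range in each of the 9 libraries. The other libraries of the left-out library's stage stayed in the choice, so evenness in a stage not used was not measured. S1 replicate 1 gave the largest distance, 0.166, and S3 replicate 1 the next, 0.143. Without S1 replicate 1, 133 of the 200 members were taken again, and without S3 replicate 1, 140. Leaving out any of the other 7 libraries kept 161 to 182, and 104 members were taken in all 9 cases.

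**Figure D5:**
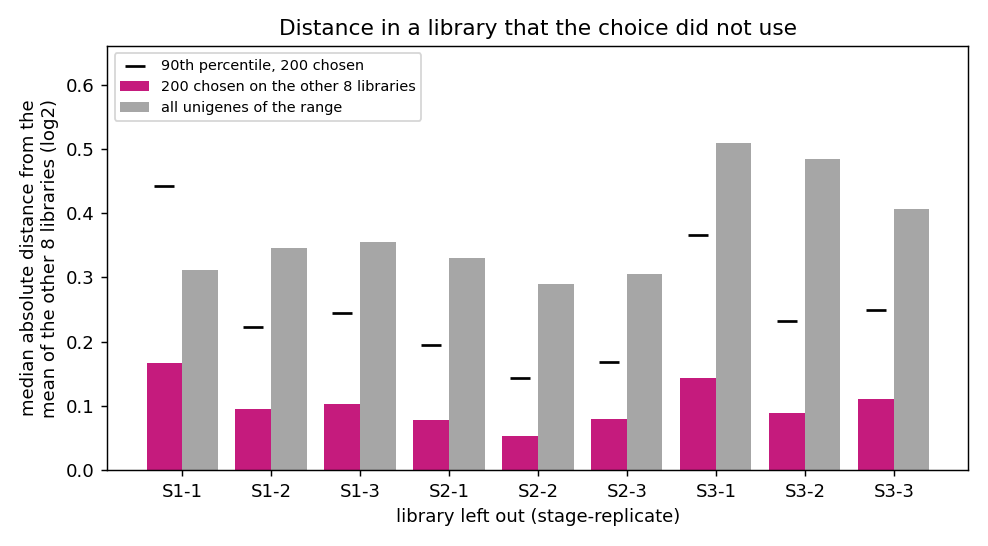
Median absolute distance of a left-out library from the mean of the other 8 (vertical, log2 scale) for the 200 unigenes chosen on those 8 and for all unigenes of the range, by library left out (horizontal). Black marks give the 90th percentile of the 200 chosen, which is 0.443 in S1 replicate 1 and 0.144 in S2 replicate 2.

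S1 replicate 1 differed from the rest in a particular way. Of the 200 unigenes chosen without it, 16 lay more than 0.5 from the mean of the other 8, 14 of them below and 2 above. Leaving out S3 replicate 1 gave 4 such unigenes, S3 replicates 2 and 3 gave 1 each, and the other 5 libraries gave 0. The farthest, named here after its values were seen, was DN32796_c0_g1. It had 9.91 FPKM in S1 replicate 1, and 22.7 to 26.5 FPKM in the other 8 libraries. It was among the 200 steadiest unigenes of those 8 libraries, with an SD of 0.0693. S1 replicate 1 also correlated less with the other S1 libraries (r = 0.927 and 0.929) than they did with each other (0.952). The S3 libraries correlated still less with each other (0.905 to 0.922), so a lower r within a stage was not particular to S1 replicate 1. With the S3 libraries, S1 replicate 1 correlated at 0.837 to 0.838, against 0.794 to 0.811 for S1 replicates 2 and 3. With the S2 libraries it correlated at 0.898 to 0.902, against 0.915 to 0.925. The cause was not tested.

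Unigenes of the same assembly component can share reads, and their levels may then be split between them. Of the members, 54 (27%) were alone in their component, against 34.1% of all unigenes of the range. In 32 members a more abundant unigene of the same component exists. A further count of 54 members shared their component with at least 1 other unigene of the range. The 67 such unigenes that were not members had a median SD of 0.290 and a highest SD of 2.78, against a median of 0.439 in all unigenes of the range that were not chosen. As non-members, each lay above the limit of the list by the rule. The largest contrast, named after its values were seen, was DN434_c0_g1. This member averaged 56.4 ± 6.20 FPKM at S1, 55.7 ± 0.357 at S2 and 57.3 ± 5.62 at S3 (SD, n = 3 each), while DN434_c0_g3 averaged 50.8 at S1 and 42.3 at S2 and was listed at 0 at S3.

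In 4 components, 2 unigenes were both members. DN14377_c2_g1 and DN14377_c2_g3 averaged nearly the same level, 11.5 and 11.4 FPKM, but their ratio ran from 0.890 to 1.21 over the libraries, with an SD of 0.146 on the log2 scale. The SDs of the 2 unigenes, 0.0838 and 0.0822, are of log2(FPKM + 1), while the ratio was taken without a pseudocount. A ratio of 2 values that vary apart spreads more than either, so no excess is read from it. DN5189_c0_g1 and DN5189_c0_g2 averaged 20.2 and 71.3 FPKM, and the SD of their log2 ratio was 0.117. In the component of DN3248_c0_g2, the member DN3248_c0_g1 had a range of stage means of 0.032, against 0.204 for DN3248_c0_g2. Members of the same component were thus not copies of 1 measurement.

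Panels of members are described by their mean deviation, which averaging makes flatter than single members. The mean deviation of the 3 steadiest members from their own averages had an SD of 0.022 over the 9 libraries, that of the 5 steadiest 0.019, that of the 10 steadiest 0.0077 and that of all 200 0.012. The largest departure of these panels from the mean of all 200 in any library was 0.039, 0.051 and 0.036. The panels were taken and measured in the same libraries, so these SDs tend to be too small, and other fruits were not measured. Of the members, 40 were taken under each of the 19 alternatives of scale, pseudocount, measure of spread, range of level and left-out library. One alternative, a range of 20 to 800 FPKM, leaves out the 58 members under 20 FPKM by its construction, and 54 were taken when it was applied only to members at 20 FPKM or more. Among the 40, the 5 with the smallest SD were DN1793_c1_g4, DN10486_c0_g2, DN18155_c0_g1, DN3423_c1_g1 and DN5189_c0_g1.

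As a measure of scale, 4 genes of flavonoid synthesis outside the list were read against the panels. The study lists them among genes that differed between stages in these same libraries. Their differences and adjusted p-values are therefore a description and no new test. SeFLS1 codes for a flavonol synthase, which makes flavonols from dihydroflavonols. It had 315.0, 413.4 and 323.7 FPKM at S1, 168.9, 188.7 and 182.8 at S2, and 20.9, 17.7 and 16.0 at S3. The stages were apart in all replicates, and SeFLS1 was lower at S3 than at S1 by a log2 difference of -4.19 (limma adjusted p = 5.65e-07). Read against the 3, 5, 10 and 200 steadiest members, the same difference was -4.17, -4.18, -4.19 and -4.20.

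SeUGT3 and SeUGT12 code for UDP-glycosyltransferases, which attach sugars to flavonoids and other small molecules. SeUGT3 had 82.8, 81.1 and 102.3 FPKM at S1, 8.32, 5.17 and 10.5 at S2, and 1.39, 1.16 and 1.27 at S3, a fall in all replicates. Its difference between S3 and S1 was -5.30 (limma adjusted p = 1.32e-06), and -5.28 to -5.30 against the panels. SeUGT12 had 1.16, 1.52 and 2.22 FPKM at S1, 28.1, 9.70 and 10 at S2, and 9.93, 28.0 and 15.5 at S3. It was higher at S3 than at S1 by 2.74 (limma adjusted p = 0.00145), and by 2.73 to 2.76 against the panels.

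Se4CL4 codes for a 4-coumarate-CoA ligase, which activates the phenolic acids from which flavonoids are built. It had 24.3, 25.8 and 23.1 FPKM at S1, 30.2, 35.1 and 47.4 at S2, and 83.3, 45.01 and 42.2 at S3. All S3 libraries exceeded all S1 libraries, and S3 replicate 1 was far above the others. S3 minus S1 was 1.12 (limma adjusted p = 0.00736), and 1.11 to 1.14 against the panels. Subtracting a panel shifts every gene by the same amount, which was at most 0.021 on the log2 scale between S3 and S1. This is the panels' own difference, kept small by the choice of members, so the 4 genes show its size beside theirs and do not test the panels.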

How the data were processed

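RNA-seq values of 9 fruit libraries were used. The authors deposited FPKM for 57814 unigenes, 1 file per library, with 2 decimals. The submitters' processing notes name fastp, a read filter. Which mapper and counter made the values is not given in the sources used here. Besides its values, the file of S1 replicate 1 has 8 further, nameless columns filled in only 1 row, which were left out. No counts or transcript lengths are given, so no counting interval was computed, and FPKM was taken as deposited.

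Members were ranked by the SD of log2(FPKM + 1), with a pseudocount of 1. All 9 libraries were fitted with limma 3.58.1 (R 4.3.3; lmFit, eBayes with trend) over 30201 unigenes that reached an FPKM of 1 in 3 or more libraries, with Benjamini-Hochberg adjusted p and a threshold of 0.05. Differences are the later stage minus the earlier. Both steps were tested on simulated data. Alternatives were other scales between libraries, pseudocounts, filters, measures of spread, a replicate block and each library left out in turn. Python 3.11.15, numpy 2.4.6, pandas 2.3.3 and matplotlib 3.10.9 were used. Samples were grouped by stage from their labels.

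The members, lists and tests were chosen with earlier results of these data known. Named were the 5 members with the smallest SD, the 2 with the smallest SD in each of 5 ranges of level, the 2 with the largest positive and the 2 with the largest negative difference between S3 and S1, 3 on either side of the limit, 5 that stayed under every alternative, and 4 flavonoid genes as examples.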

Additional observations from a re-analysis of the deposited data

How the results depend on the processing

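The count of called members was recomputed 87 times and stayed at 0 in 76. With each library scaled to the same total, it was 34 between S3 and S2, 11 between S3 and S1 and 17 over the 3 stages. The shares of all unigenes tested that were called there were 46.1%, 46.3% and 54.6%, and the list shared 97 members. Quantile normalization gave 1 between S3 and S2 and 1 over the 3 stages, against 46.2% and 55.6% of all unigenes tested. A pseudocount of 0.01 gave 2 between S3 and S2 and 1 between S3 and S1, against 46.5% and 46.8%. A fit of only the 6 libraries compared gave 2 between S3 and S2, against 50.3%. Leaving out single libraries gave 0 to 4 called members between S3 and S2 (4 without S1 replicate 1, 1 without S3 replicate 1). It gave 0 to 2 between S3 and S1 (2 without S1 replicate 1) and 0 in the other tests. Without S1 replicate 1, 51.9% of all unigenes tested were called between S3 and S2 and 51.4% between S3 and S1. Without S3 replicate 1, 43.3% were called between S3 and S2. The lists shared 133 to 182 members, the lowest without S1 replicate 1. With the replicate number as a block, the count was 0 in all 4 tests, against 13.4% to 50.8% of all unigenes tested. Deviations of same-numbered libraries correlated at -0.138 to 0.042 across unigenes, against -0.104 to 0.119 for libraries of different number. No pairing by number was seen in these values, which cannot tell whether same-numbered libraries shared a source or a batch. The block changed no call of a member. The cause of the changed counts was not tested.

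The median SD, the median range of stage means and the left-out distance gave 30 recomputed values. All 30 moved by less than the SD between replicates of the median member (0.0786). That SD is near the size of the values themselves (0.0914, 0.118 and 0.093 with FPKM as deposited), so only large changes would have exceeded it. The median range was 0.192 with each library scaled to the same total, against 0.118. The 4 flavonoid genes kept their direction in all 80 recomputed differences. The limma fits among these covered the scales, pseudocounts, replicate block and left-out libraries, and kept their call. Differences against the panels carried no call. Other filters, other settings of limma's spread, fits of only the 6 libraries compared and a stricter threshold were not checked for these genes. Of 288 recomputed differences of the 18 named members, 17 moved by more than that member's SD between replicates, all with each library scaled to the same total. Without counts, the share of counting error in the spread of the members was not measured.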
